A study of Mus musculus with 12 samples.

Results

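The expression change of the newborn mouse retina without *Otx2* was read from 6 of the 12 arrays of the series, 3 control and 3 *Otx2* CKO arrays at postnatal day 1 (P1). The arrays were taken by their titles. Control mice were otx2 flox/flox; Crx-Cre-, and *Otx2* CKO mice were otx2 flox/flox; Crx-Cre+, so that both groups carried 2 floxed alleles and differed in the Cre transgene, which the *Crx* promoter drives in photoreceptor precursors. The other cells of the retina keep *Otx2* where they do not express Cre, and RNA came from whole dissected retinas of mice held in a 12 h light and 12 h dark cycle. How many retinas or animals went into an array, their sex and their strain are not given in the sources used here, so the p-values measure only the spread between these arrays. The free-text descriptions name the *Otx2* CKO retina for the third P1 control array and the control retina for the 3 P1 *Otx2* CKO arrays. Titles, source names and genotypes name the same groups and were used. The Affymetrix Mouse Genome 430 2.0 array reports each transcript by probe sets. Of 45037 probe sets other than AFFX controls, 8384 had a mean deposited signal of at least 50 in 1 of the groups and were tested. Normalized signals are the deposited ones after quantile normalization of the 6 arrays, in arbitrary units. A log2 change is the difference *Otx2* CKO minus control of log2(signal + 16), and the block is a fit that compares arrays of the same experiment number.

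*Otx2* encodes a homeodomain transcription factor that commits newly born retinal cells to the photoreceptor fate. It acts upstream of *Crx*, a related homeodomain factor that drives many photoreceptor genes, and of *Nrl*, the leucine zipper factor that specifies rods. Around birth the mouse retina holds most of its cones, an early part of its rods, many dividing progenitors and a large population of young ganglion, amacrine and horizontal cells. Photoreceptors at this age have no mature outer segment or ribbon synapse yet. In a whole retina, fewer cells of a type and less RNA per cell cannot be told apart.

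Otx2 and Crx bind DNA at the core TAATCC. In the 250 bases before the annotated start, this hexamer or its complement GGATTA stood in the promoter of 5 of 13 genes that were lower in the *Otx2* CKO retina and have an entry in the RefSeq promoter table (38.5%, exact binomial 95% interval 13.9 to 68.4%). It stood in 255 of 4292 genes among all tested genes with an entry (5.94%) and in 1949 of 27025 genes of the table (7.21%). A gene counted when any of its listed starts had a match. The 5 genes are *Crx*, *Sag*, *Rbp3*, *Ankrd33b* and *Unc119*, the last at 1 of its 3 listed starts. With the shorter TAATC, which TAATCC contains, the count was 6 of 13 genes (46.2%) against 674 of 4292 (15.7%), and the added gene was *Opn1sw*. A match shows only that these letters are in this window. The upstream windows of 4 of these genes are shown for their matches, which are set in capitals and read GGATTA on the printed strand in each of them (GRCm38.p6, 5′ to 3′, ending at the base before the start).
Crx, chr7:15879956-15880205, minus strand: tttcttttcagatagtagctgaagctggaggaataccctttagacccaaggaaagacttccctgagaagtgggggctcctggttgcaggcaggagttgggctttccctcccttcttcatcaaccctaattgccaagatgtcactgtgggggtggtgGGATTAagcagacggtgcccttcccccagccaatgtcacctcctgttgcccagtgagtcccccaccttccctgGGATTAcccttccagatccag
Sag, chr1:87803430-87803679, plus strand: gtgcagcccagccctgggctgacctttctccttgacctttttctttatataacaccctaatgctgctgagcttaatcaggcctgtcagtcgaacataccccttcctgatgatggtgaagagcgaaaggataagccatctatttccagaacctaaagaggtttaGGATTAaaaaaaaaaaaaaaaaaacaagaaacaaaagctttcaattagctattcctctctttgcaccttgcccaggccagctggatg
Rbp3, chr14:33953753-33954002, plus strand: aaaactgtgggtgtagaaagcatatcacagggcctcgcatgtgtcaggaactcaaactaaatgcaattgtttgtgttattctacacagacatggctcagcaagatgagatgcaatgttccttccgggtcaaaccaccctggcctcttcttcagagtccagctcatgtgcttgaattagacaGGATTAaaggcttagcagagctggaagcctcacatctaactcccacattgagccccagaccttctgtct
Ankrd33b, chr15:31367760-31368009, minus strand: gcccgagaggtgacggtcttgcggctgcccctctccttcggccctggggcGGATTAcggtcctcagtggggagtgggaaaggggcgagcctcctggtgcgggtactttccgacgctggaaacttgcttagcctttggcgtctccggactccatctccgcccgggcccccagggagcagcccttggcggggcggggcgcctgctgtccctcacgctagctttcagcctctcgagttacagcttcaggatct
The matches of *Crx* begin 94 and 21 bases before the start, that of *Sag* 87, that of *Rbp3* 69 and that of *Ankrd33b* 200 bases before it.

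Several arrays stood apart. The third control array was the control closest to the *Otx2* CKO mean in 14 of the 16 probe sets that passed the test, against 38.1% of all probe sets tested. In these 16 it lay a median 26.3% of the way from the other controls to the *Otx2* CKO mean (2.66 to 46.8%). The second *Otx2* CKO array was dim, with a 2% trimmed mean of 21.8 against 25.2 to 30.1 on the other arrays. Log2 signals correlated at 0.965 to 0.971 within the control, at 0.893 to 0.966 within the *Otx2* CKO and at 0.921 to 0.968 between the groups. *Xist*, the X-inactivation RNA of female cells, had a deposited signal at 1 of its probe sets of 18.0 on the second *Otx2* CKO array and 269 to 460 on the other arrays. The Y-linked *Eif2s3y* had 22.2 and 17.4 on the first and second *Otx2* CKO arrays and at most 4.20 elsewhere. Sex-linked RNAs thus differed between arrays within the *Otx2* CKO group. Without X and Y probe sets, an alternative chosen after seeing the data, 17 probe sets were lower, the 16 of the whole comparison among them. The ratio of the 3′ to the 5′ actin probe set, a sign of RNA quality, was 1.52 to 1.57 in the controls and 1.35 to 1.58 in the *Otx2* CKO. Of the markers of neighbouring tissues, 0 of 9 red blood cell and 0 of 20 pigment epithelium genes reached the signal limit, against 2 of 25 microglia, 3 of 24 vessel and 1 of 22 connective tissue genes. None of these 6 tested genes passed. The markers *Rpe65*, *Hba-a1*, *Aif1*, *Pecam1* and *Col1a1* stayed below 6 deposited units on all 6 arrays. Other microglia and vessel markers were not all this dim, so these low values do not show that the cells were absent. The microglia gene *Csf1r* reached 54.1 on the third *Otx2* CKO array, while *Tmem119* stayed at 4.9 or below. The vessel gene *Cldn5* reached 28.3 on the first control array, while *Cdh5* stayed at 2.8 or below. The vessel receptor *Kdr* averaged 124 ± 10.4 normalized units over the control and 142 ± 14.5 over the *Otx2* CKO arrays (SD, n = 3 each). The collagen gene *Col6a1* had 60.0 ± 4.41 against 76.9 ± 4.39 with the arrays apart (limma adjusted p = 0.993). The summed deposited signal of the control and *Otx2* CKO arrays was 553 to 817 and 501 to 607 for microglia, 385 to 468 and 389 to 460 for vessel, and 160 to 186 and 148 to 185 for connective tissue genes. The microglia sum includes *Cst3*, whose normalized mean was 384 ± 10.3 over the control and 367 ± 78.9 over the *Otx2* CKO arrays. The part of these tissues in the results was not tested. The summed deposited signal of 19 lens genes was 193 on the first control array and 18.9 to 67.9 on the others, and none of them reached the signal limit.

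*Otx2* itself, the check of the labels, was lower on every *Otx2* CKO array. Its only probe set had normalized signals of 363, 338 and 255 on the 3 control arrays and 144, 128 and 164 on the *Otx2* CKO arrays. The groups did not overlap, and the mean was 2.19-fold lower in the *Otx2* CKO (319 ± 56.6 against 145 ± 18.2, SD, n = 3 arrays each). On the scale of log2(signal + 16) the change was −1.04 (SE 0.17) and did not pass over all probe sets (limma adjusted p = 0.0625). Blocking on the experiment number gave a limma adjusted p of 0.0212, and leaving out the third control or the first *Otx2* CKO array gave 0.0320 or 0.0193 (0.0193 to 0.533 over the alternatives). Where the probe set lies relative to the floxed exons is not given in the sources used here.

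In the whole comparison 16 probe sets (0.191% of those tested) were lower in the *Otx2* CKO retina and 0 (0%) were higher at a limma adjusted p under 0.05. They belong to 14 named genes, with 2 probe sets for *Crx*, and include 1 probe set to which the platform annotation used here gives no symbol. The study lists this probe set as *Nr2e3*. Its normalized mean was 89.1 ± 36.6 over the control and 7.11 ± 4.79 over the *Otx2* CKO arrays (log2 change −2.15, SE 0.28, limma adjusted p = 0.0178). All 16 had the 3 *Otx2* CKO arrays below the 3 control arrays, a separation that 330 probe sets (3.94%) showed in this direction and 400 (4.77%) in the other. An unadjusted p under 0.05 was found for 199 lower probe sets (2.37%) and 188 higher ones (2.24%). With the block 35 probe sets (0.417%) were lower and 2 (0.0239%) higher. Single arrays decided these counts. Without the first or without the second control array 2 probe sets were lower, those of *Sag* and *Nrl*. Without the second *Otx2* CKO array 12 were lower and without the third 5. Calls lost in these fits had limma adjusted p-values of 0.0525 to 0.278. Without the third control array 36 were lower (0.429%) and 3 higher (0.0358%), and without the first *Otx2* CKO array 362 were lower and 38 higher. The 16 probe sets were among those called in both of the last fits. In 15 of the 16 the *Otx2* CKO mean was under 30 units, a level at which the files give no detection call.

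**Figure D1:**
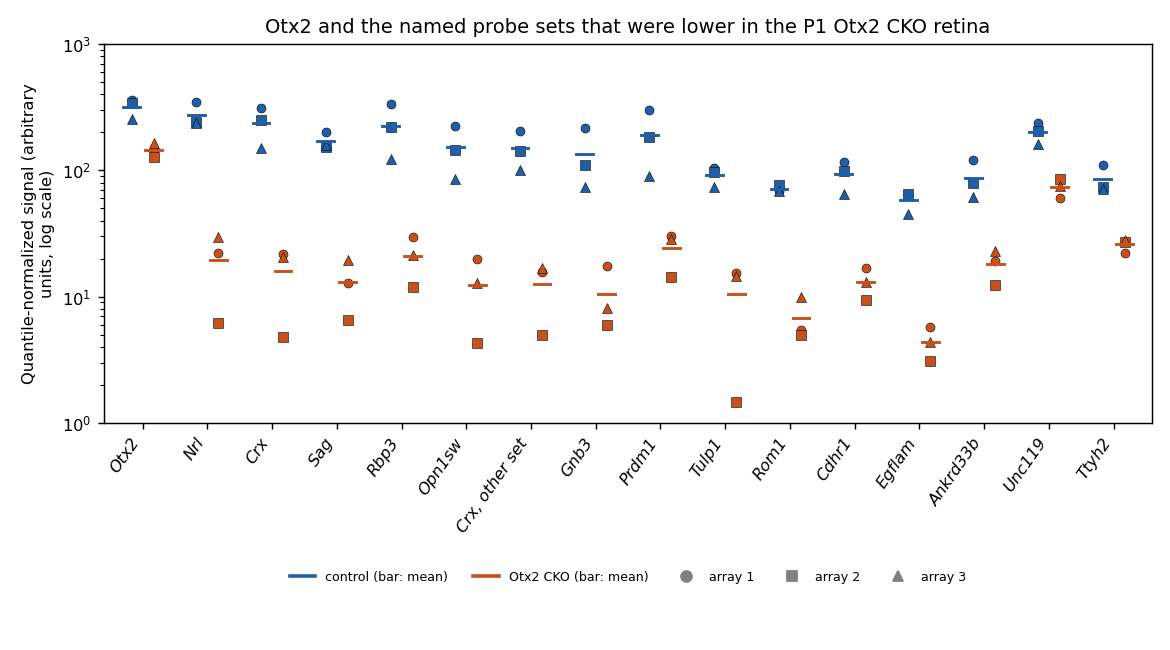
Quantile-normalized signal (arbitrary units, log axis) of *Otx2* and of the 15 named probe sets that were lower in the *Otx2* CKO retina, with 1 point for each of 3 control (blue) and 3 *Otx2* CKO (orange) arrays and a bar at each group mean. The groups are apart for every gene shown, and the third control array (triangle) is the lowest blue point for *Otx2* and for most of the others.

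Transcription factors of the photoreceptor lineage held the largest falls, those of *Nrl* and *Crx*. Of 23 genes on this list, which includes *Otx2*, 22 had a probe set named in the annotation and 11 reached the signal limit. Of these 11 genes 3 passed as lower (6 with the block), 0 were higher, and the median log2 change was −1.04 against −0.01 over all probe sets tested. *Nrl* had normalized signals of 346, 242 and 235 on the control arrays and 22.2, 6.18 and 29.6 on the *Otx2* CKO arrays. The lowest control value was far above the highest *Otx2* CKO value. The log2 change was −3.08 (SE 0.26, limma adjusted p = 0.00261). *Crx* had 312, 252 and 151 on the control arrays and 21.9, 4.82 and 20.7 on the *Otx2* CKO arrays, with a log2 change of −3.0 (SE 0.29, limma adjusted p = 0.00506). Its other probe set changed by −2.51 (SE 0.25). *Prdm1*, a zinc finger repressor that keeps precursors from the bipolar fate, had 299, 184 and 89.8 on the control arrays and 30.4, 14.3 and 28.4 on the *Otx2* CKO arrays. Its mean was 7.84-fold lower, but the controls spread widely, and its limma adjusted p was 0.0492.

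The other tested factors of this list did not pass. The passing probe set that the study lists as *Nr2e3* has no symbol in the annotation used here and is not among the 11 tested genes of the list. *Neurod1*, a basic helix-loop-helix factor of young photoreceptors, had normalized signals of 463, 370 and 247 on the control arrays and 193, 83.5 and 144 on the *Otx2* CKO arrays. The groups were apart and the log2 change was −1.29 (SE 0.29, limma adjusted p = 0.341). With the block limma's adjusted p was 0.0180, and without the first *Otx2* CKO array 0.0202 (0.0180 to 1.0 over the alternatives), and its second probe set also had a change of −1.29 (limma adjusted p = 0.0847, 0.0172 with the block and 0.0103 to 1.0 over the alternatives). *Samd11*, a photoreceptor chromatin factor, had 101, 45.3 and 43.5 against 13.1, 11.7 and 12.2, a log2 change of −1.41 with a limma adjusted p of 0.187, of 0.0293 with the block and of 0.0306 without the first *Otx2* CKO array (0.0247 to 0.843 over the alternatives). Arrays were also apart for *Pias3*, a SUMO ligase that acts with Crx and Nrl (log2 change −0.71), and for *Mef2d* (−0.59). The groups overlapped for *Rorb*, *Rax* and *Tbx2*, whose changes were −0.16, −0.27 and −0.10. *Rax* and *Rorb* are also expressed in progenitors. Of 11 members below the signal limit, and so untested, 5 were lower in deposited signal with the arrays apart, 1 (*Nr1d1*) was higher and 5 overlapped. Among the lower ones *Crxos* had deposited signals of 20.3, 10.5 and 5.90 on the control arrays and at most 0.300 on the *Otx2* CKO arrays. These signals are low and not scaled between arrays, and the 2% trimmed mean was lower on every *Otx2* CKO array than on every control array. No share over all probe sets below the limit was taken to set beside these counts.

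Genes of phototransduction, the cascade from light capture to the electrical response, rarely reached the signal limit at this age. Of 15 cone genes 3 were tested and 2 were lower (median −2.41). *Opn1sw*, the short-wavelength cone opsin, had normalized signals of 224, 146 and 86.0 on the control arrays and 19.7, 4.28 and 12.8 on the *Otx2* CKO arrays. Every *Otx2* CKO array was below every control array, with a log2 change of −2.52 (SE 0.31, limma adjusted p = 0.0150). *Gnb3*, the beta subunit of cone transducin, had 218, 111 and 73.8 against 17.6, 5.92 and 8.07 and changed by −2.41 (SE 0.32, limma adjusted p = 0.0225). *Gnat2*, its alpha subunit, had 55.4, 68.6 and 21.9 against 7.35, 6.95 and 6.98. Its limma adjusted p was 0.335, 0.0380 without the third control array and 0.0410 without the first *Otx2* CKO array (0.0380 to 1.0 over the alternatives). The medium-wavelength opsin *Opn1mw* and cone arrestin *Arr3* stayed below 6 deposited units on all 6 arrays.

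Of 18 rod genes 4 were tested and 1 was lower (2 with the block, median −1.31). *Sag*, the rod arrestin that shuts off activated opsin, had normalized signals of 201, 154 and 157 on the control arrays and 12.9, 6.50 and 19.6 on the *Otx2* CKO arrays. The controls varied little, and the log2 change of −2.70 (SE 0.19) had the smallest adjusted p of the comparison (0.00113, limma). *Pdc*, phosducin, a partner of the transducin beta and gamma subunits, had 336, 374 and 67.2 against 39.3, 8.47 and 31.8. Here the third control array was far nearer to the *Otx2* CKO arrays than to the other controls. The limma adjusted p was 0.305 with that array, 0.00279 without it, 0.0356 without the first *Otx2* CKO array and 0.0180 with the block (0.00279 to 1.0 over the alternatives). *Gnb1*, a beta subunit that many cell types share, had a mean of 568 ± 19.7 against 623 ± 18.4 (log2 change 0.13). Of 13 rod genes below the limit 6 had the *Otx2* CKO arrays below the control arrays in deposited signal, and 7 overlapped. Deposited signals are not scaled, and the 2% trimmed means were 28.5 to 30.1 on the control and 21.8 to 27.9 on the *Otx2* CKO arrays. The share over all probe sets below the limit was not taken, so this count has no background beside it. The brightest was *Pde6g*, the inhibitory subunit of the rod phosphodiesterase, with deposited signals of 44.3, 27.8 and 27.1 against 6.60, 5.10 and 5.40. Recoverin *Rcvrn* had 27.7, 16 and 20.7 against 5.00, 1.90 and 2.70, while *Rgs9*, which speeds the shutoff of transducin, had 10.8, 9.70 and 6.40 against 9.90, 7.80 and 9.10. The rod transducin *Gnat1* stayed at 3.50 or below on all 6 arrays.

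Genes of the outer segment and of photoreceptor adhesion had 7 tested members of 19, of which 5 were lower and 0 higher (median −1.89). *Rbp3*, the retinoid carrier of the matrix between photoreceptors and pigment epithelium, had normalized signals of 332, 221 and 123 on the control arrays and 29.7, 11.9 and 21.3 on the *Otx2* CKO arrays. The mean was 10.7-fold lower (log2 change −2.64, SE 0.31, limma adjusted p = 0.0121). *Rom1*, a disc rim protein, had 68.4, 75.9 and 69.0 against 5.45, 4.97 and 9.97, a tight pair of groups with a change of −1.94. *Cdhr1*, the photoreceptor cadherin, had 116, 98.0 and 65.4 against 16.8, 9.35 and 13 (−1.89). *Tulp1*, which carries proteins to the outer segment, changed by −2.06. *Egflam*, pikachurin of the synaptic matrix, had 64.2, 64.8 and 44.8 against 5.73, 3.08 and 4.40 (−1.85). *Prom1*, a membrane protein of disc evaginations that progenitors also carry, had 205, 168 and 98.5 against 82.3, 53.7 and 65.7. Its limma adjusted p was 0.374, 0.0313 with the block, 0.0332 without the third control array and 0.0353 without the first *Otx2* CKO array (0.0313 to 1.0 over the alternatives). *Mfge8*, a secreted adhesion protein, had a positive change of 0.30 (limma adjusted p = 0.993).

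In the lists of the cilium and the ribbon synapse 1 gene passed. Of 10 tested genes of the cilium and of trafficking 1 was lower (median −0.23). *Unc119*, which carries lipid-modified proteins to the outer segment, had 237, 205 and 161 on the control arrays and 59.8, 85.1 and 75.6 on the *Otx2* CKO arrays. It kept a clear signal in the *Otx2* CKO, 2.74-fold below the control (log2 change −1.27, SE 0.17, limma adjusted p = 0.0240). *Mak*, a kinase of the photoreceptor cilium, had a change of −1.47 and did not pass (limma adjusted p = 0.305, 0.0410 without the third control array, 0.0337 without the first *Otx2* CKO array and 0.0337 to 1.0 over the alternatives). The cilium genes *Arl3*, *Ift140* and *Kif3a*, used by many cell types, had changes of 0.14, 0.15 and −0.10. None of 6 tested ribbon synapse genes passed (limma, 3 as lower with an unadjusted p under 0.05, against 2.37% of all probe sets tested). Their median was −0.50, and 4 of the 6 had the *Otx2* CKO arrays below the control arrays, against 3.94% of all: *Sv2b* of synaptic vesicles (−1.17), *Stx3*, the syntaxin of ribbon synapses (−0.93), *Cplx3*, a complexin (−0.72), and *Ctbp2*, whose longer product builds the ribbon (−0.28). *Syt1*, of vesicles in most neurons, was at −0.04. Without the first *Otx2* CKO array limma's adjusted p was 0.0474 for *Sv2b*, 0.0483 for *Stx3* and 0.0381 for *Cplx3*, and without the third control array 0.0410, 0.0380 and 0.467 (0.0380 to 1.0 over the alternatives of the 3 genes).

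Outside these lists *Ttyh2*, of a family of chloride channels, and *Ankrd33b* were lower. *Ttyh2* had normalized signals of 111, 73.8 and 70.4 against 22.3, 27.3 and 28.1, and its mean was 3.28-fold lower (log2 change −1.25, SE 0.18, limma adjusted p = 0.0361). *Ankrd33b* had 120, 78.8 and 61.0 against 19.1, 12.4 and 23.0 (−1.56, limma adjusted p = 0.0389). *Fabp7*, a fatty acid binding protein of radial glia and precursors, had 679 and 563 on the first and second control arrays, 126 on the third, and 65.8, 11.7 and 47.8 on the *Otx2* CKO arrays. Its log2 change of −2.88 (SE 0.58) had a limma adjusted p of 0.232, 0.00863 with the block, 0.00517 without the third control array and 0.0257 without the first *Otx2* CKO array (0.00111 to 1.0 over the alternatives). In the same list *Slc1a2*, a glutamate transporter, had 77.7, 67.0 and 7.77 against 14.2, 5.6 and 11.4 with overlapping groups (limma adjusted p = 0.993, and 0.0321 without the third control array, 0.0321 to 1.0 over the alternatives), while the glial genes *Glul*, *Rlbp1* and *Vim* had changes of 0.05, 0.00 and 0.00.

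Several genes without a photoreceptor role in these lists passed as lower with the block and not without it, and were chosen after their values were seen. *Tmem158*, a membrane protein, had normalized signals of 80.6, 97.3 and 79.0 against 28.7, 40.2 and 38.0, with the groups well apart. Its log2 change was −0.98 (SE 0.15), with a limma adjusted p of 0.0501, of 0.0172 with the block and of 0.0147 without the first *Otx2* CKO array (0.0147 to 1.0 over the alternatives). *Ebpl*, related to a sterol isomerase, had 214, 132 and 145 against 54.6, 71.0 and 65.9 (−1.15, limma adjusted p = 0.0571, and 0.0172 with the block, 0.0172 to 0.843 over the alternatives). *Slc25a33*, a mitochondrial carrier, *Pik3r1*, a regulatory subunit of PI3 kinase, *Ccdc136*, the linker histone gene *H1f2* and the glyoxalase gene *Glo1* had changes of −1.06, −1.12, −1.08, −1.20 and −1.11, and limma adjusted p-values of 0.0172 to 0.0440 with the block and 0.0921 to 0.949 without it. Without the first *Otx2* CKO array those of *Slc25a33*, *Pik3r1*, *Ccdc136* and *Ebpl* were 0.0215, 0.0349, 0.0407 and 0.0202. The groups of *Glo1* overlapped, with 492, 214 and 149 against 172, 80.5 and 90.1.

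**Figure D2:**
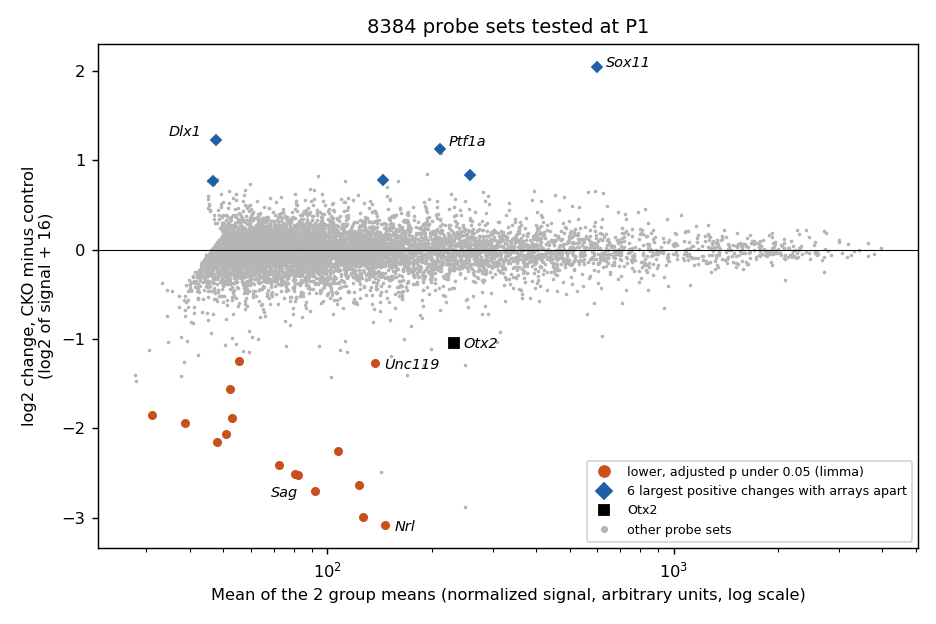
log2 change (*Otx2* CKO minus control, log2 of signal + 16) of the 8384 probe sets tested at P1 against the mean of both groups (normalized signal, log axis). The 16 lower probe sets (orange) lie between −1.25 and −3.08, *Otx2* (black) at −1.04, and the 6 largest positive changes with arrays apart (blue) between 0.77 and 2.04.

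Of 10 tested basic helix-loop-helix and related factors of neurogenesis none passed in the fit without a block (with it *Neurod1* alone was lower), 2 had a change above 0, and the median was −0.18. *Neurod4* had a change of −1.40 with overlapping groups and normalized signals of 365, 279 and 110 against 146, 28.8 and 89.0. *Atoh7*, which marks precursors of ganglion cells, had a change of −0.67 and *Btg2*, an antiproliferative factor of dividing precursors, of −0.66 (limma adjusted p = 0.993 and 0.690). A second *Btg2* probe set had a change of −0.80, with a limma adjusted p of 0.107 and of 0.0440 with the block (0.0202 to 1.0 over the alternatives). *Neurog2*, an early proneural factor, had 222, 156 and 223 against 369, 233 and 297, a positive change of 0.54 with the groups apart (limma adjusted p = 0.993). *Hes6*, an inhibitor of Hes1, was at −0.03.

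No probe set was higher in the fit without a block, so the positive changes are given as values. The 6 largest with the arrays apart were those of *Sox11* (as annotated), *Dlx1*, *Ptf1a*, *Bnip3*, *Ebf3* and *Gm13889* (0.77). *Ptf1a*, the bHLH factor that sets amacrine and horizontal cells, had normalized signals of 91.2, 94.4 and 208 on the control arrays and 243, 253 and 377 on the *Otx2* CKO arrays. Each *Otx2* CKO array exceeded every control, and the mean was 2.22-fold higher (log2 change 1.12, SE 0.29). Its limma adjusted p was 0.491, 0.00868 with the block and 0.0299 without the third control array (0.00868 to 1.0 over the alternatives). *Dlx1*, a homeobox gene of ganglion cells and inhibitory interneurons, had 15.5, 10.7 and 45.6 against 78.3, 63.0 and 73.2. The change was 1.23 (SE 0.29, limma adjusted p = 0.374, 0.0435 with the block, 0.0168 without the third control array and 0.0168 to 1.0 over the alternatives). Its neighbour *Dlx2*, below the limit, had deposited signals of 6.40, 16.3 and 30.3 against 30.8, 36.2 and 42.4.

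*Sox11*, a factor of young neurons, has 6 probe sets in the platform annotation used here, with unlike values. One of them is listed by the study under another symbol, so that its gene is uncertain. This probe set, with the largest positive change of the comparison (2.04, SE 0.56), had 88.6, 133 and 681 on the control arrays and 1003, 867 and 826 on the *Otx2* CKO arrays. The third control array was thus near the *Otx2* CKO level, and the limma adjusted p was 0.588 with it and 0.00122 without it (0.00122 to 1.0 over the alternatives). The other 5 *Sox11* probe sets had changes of −0.19, −0.01, 0.43, 0.47 and 0.85. *Ebf3*, a helix-loop-helix factor of young ganglion and amacrine cells, had 3 probe sets with changes of 0.70, 0.76 and 0.78. *Bnip3*, a mitochondrial protein induced by low oxygen, had 206, 93.0 and 271 against 381, 275 and 326, with the lowest value on the second control array.

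**Figure D3:**
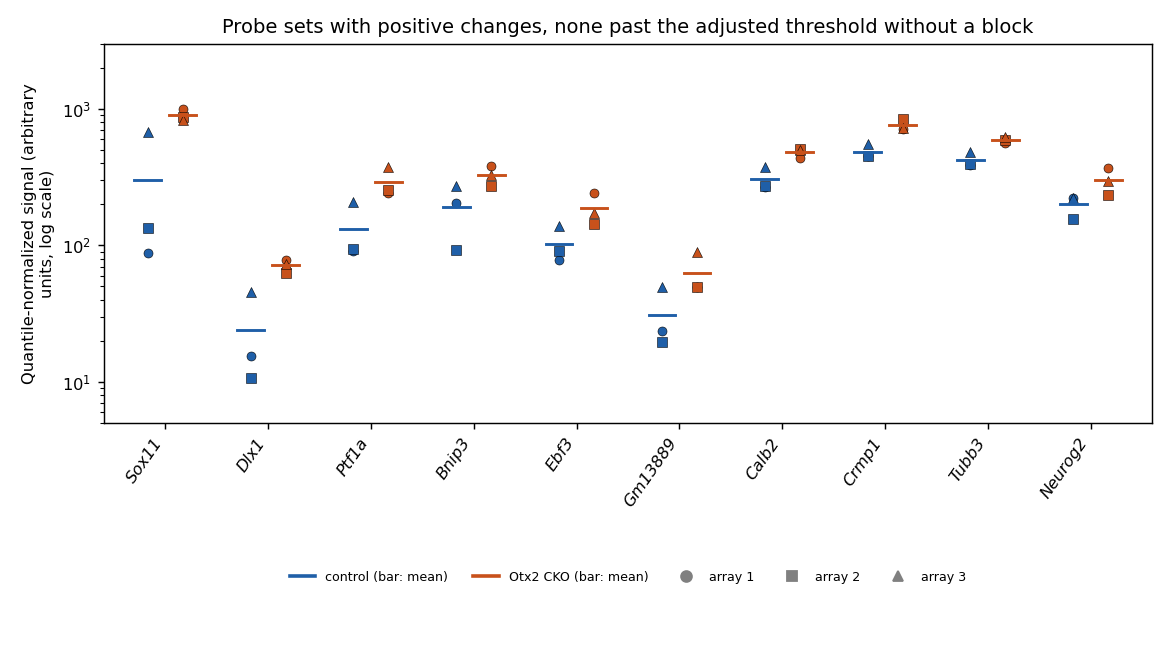
Quantile-normalized signal (arbitrary units, log axis) on 3 control (blue) and 3 *Otx2* CKO (orange) arrays for the 6 largest positive changes with arrays apart, *Sox11* (as annotated) to *Gm13889*, and for 4 further genes of the text, *Calb2* to *Neurog2*, with bars at group means. No *Otx2* CKO point falls below a control point of the same gene, and the third control array (triangle) is the highest control point of every gene shown.

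Most tested genes of other neuron classes had small positive changes, and none passed. Of 18 tested ganglion cell genes 18 had a change above 0, against 3951 of 8384 over all probe sets, and 7 had the *Otx2* CKO arrays above the control arrays, against 4.77% of all. Their median was 0.44, and 9 had an unadjusted p under 0.05 (limma), against 2.24% of all probe sets in this direction. *Stmn2*, of growing axons, had a mean of 587 ± 59.5 against 790 ± 91.3, and *Sncg*, gamma-synuclein of ganglion cells, 184 ± 24.7 against 283 ± 61.2. *Tubb3*, the neuronal tubulin, had 388, 394 and 483 against 566, 589 and 626 (log2 change 0.48, limma adjusted p = 0.562). The summed deposited signal of the list was 3925, 3731 and 5236 on the control arrays and 5811, 4683 and 4689 on the *Otx2* CKO arrays, so that the third control array overlapped the *Otx2* CKO.

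The list of growing and young neurons shares the tested genes *Stmn2*, *Tubb3*, *Gap43* and *Elavl4* with that of ganglion cells. It had 29 tested genes, a median of 0.32 and 8 genes with the *Otx2* CKO arrays above, against 4.77% of all probe sets. *Crmp1*, which works in axon growth, had 454, 449 and 558 against 716, 839 and 723 (log2 change 0.63, limma adjusted p = 0.266, and 0.0334 without the first *Otx2* CKO array, 0.0334 to 1.0 over the alternatives). The widely expressed *Tuba1a* and *Stmn1* had changes of 0.06 and −0.03. Among 15 tested amacrine genes the median was 0.15. *Calb2*, calretinin, had 269, 271 and 376 against 438, 513 and 503 (0.65, limma adjusted p = 0.430, and 0.0399 without the first *Otx2* CKO array, 0.0399 to 1.0 over the alternatives). *Gad1*, which makes GABA, went the other way, with 117, 115 and 76.6 against 54.6, 42.7 and 71.6 (−0.72, limma adjusted p = 0.562), and *Tfap2a* and *Tfap2b*, transcription factors of amacrine cells, were at 0.12 and −0.23. The 3 tested bipolar genes, of which *Isl1* is also on the ganglion cell list, had changes of 0.29 to 0.52 with overlapping groups. The 5 tested horizontal cell genes lay between −0.07 and 0.34. Of 19 bipolar genes below the signal limit 4 were lower with the arrays apart (*Pcp2* among them), 1 (*Irx6*) was higher and 14 overlapped. Of 8 such horizontal cell genes 3 were lower (*Lhx1* among them), 0 higher, and 5 overlapped. These are unscaled deposited signals, and no share over all probe sets below the limit was taken.

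**Figure D4:**
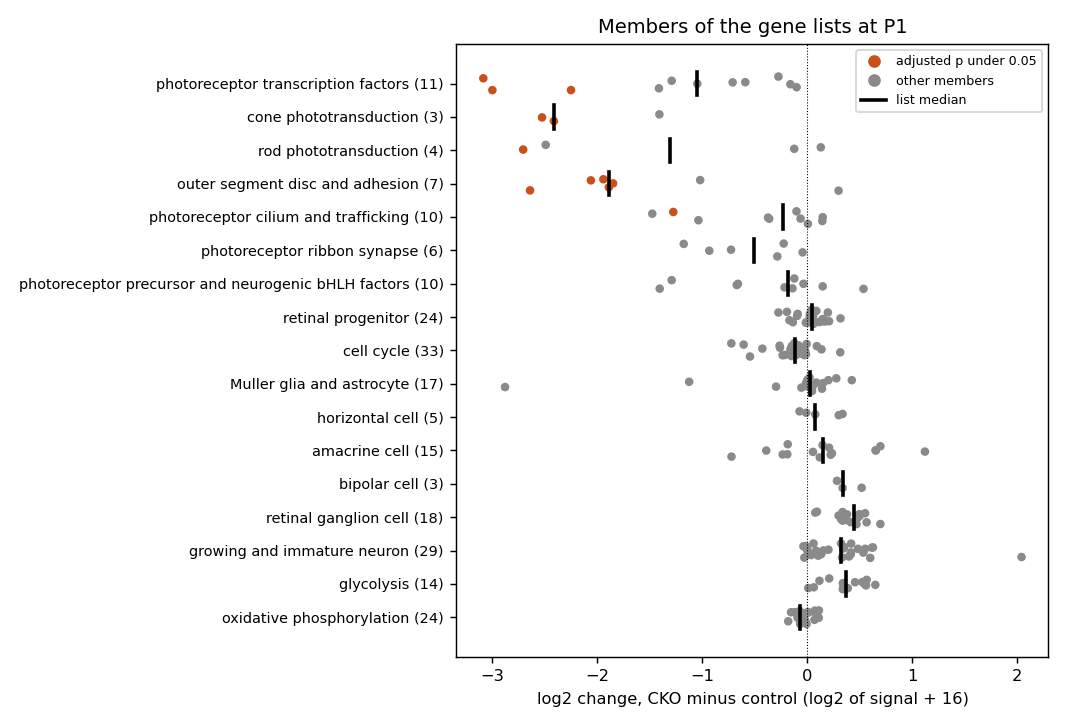
log2 change (*Otx2* CKO minus control, log2 of signal + 16) of the tested members of 17 gene lists, 1 point a gene, with the number tested in brackets and a black line at the list median. Orange points, which passed the test, occur in all photoreceptor lists but those of the ribbon synapse and of precursors. The medians of the 6 upper lists run from −2.41 to −0.23, and the ganglion cell, young neuron and glycolysis medians are 0.44, 0.32 and 0.37.

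The medians of lists of dividing and of support cells lay between −0.11 and 0.05, and none of their members passed. The 24 tested progenitor genes had a median of 0.05, with *Ccnd1*, cyclin D1, at 1710 ± 218 against 1607 ± 205. The 33 cell cycle genes had a median of −0.11 and 3 had a change above 0, against 3951 of 8384 over all probe sets. The *Otx2* CKO arrays were below the control arrays for 2 of the 33, against 3.94% of all probe sets, and above for 1, against 4.77%. *Mki67*, a marker of dividing cells, had 288, 347 and 372 against 390, 129 and 146 with overlapping groups (−0.72, limma adjusted p = 0.993). Its highest value was thus on the first *Otx2* CKO array. *Pcna*, of replication, was at −0.02. The medians were 0.02 for 17 glial genes, 0.04 for 17 Notch genes and −0.07 for 24 genes of oxidative phosphorylation. Of 10 tested p53 and apoptosis genes 1 had the *Otx2* CKO arrays above, against 4.77% of all probe sets (median 0.02). The 14 glycolysis genes had a median of 0.37 and changes of 0.01 to 0.65. Their summed deposited signal was 7219, 4582 and 7941 on the control arrays and 7086, 5945 and 7851 on the *Otx2* CKO arrays. The second control array was thus the low one and the groups overlapped. No gene of the red blood cell, pigment epithelium, lens, skeletal muscle or interferon lists reached the signal limit.

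The study's criterion of a signal log ratio of −1 or below and a signal of at least 50, read here as the log2 ratio of the deposited group means and as the control mean since the sources do not say which was used, was met by 91 probe sets (1.09% of those tested), and the opposite one by 3 (0.0358%), those of *Dlx1*, *Arhgap21* and the probe set of uncertain gene annotated as *Sox11*. This criterion has no test. Just inside the signal limit of 50 were *Rmdn3* and *Naa50*, both at a deposited control mean of 50. Just outside were *Zfx*, at a control mean of 49.97, and *Cmip*, at an *Otx2* CKO mean of 49.97.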

How the data were processed

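The analysis used 6 of 12 Affymetrix Mouse Genome 430 2.0 arrays, 3 control and 3 *Otx2* CKO at P1. The authors isolated total RNA with TRIzol, labeled it with the One-Cycle cDNA and IVT kits, and deposited signal intensity values determined with GeneChip Operating Software 1.4. These intensities are linear and not scaled between arrays (2% trimmed means 21.8 to 30.1). No detection call or scan date was used here, and the number of arrays limits the precision. No pair of arrays was identical. Gene symbols came from the platform annotation: of 45037 probe sets other than AFFX, 34945 had 1 symbol, 932 several and 9160 none. Of 744 listed genes 681 had a named probe set.

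The P1 arrays were quantile normalized, and log2(signal + 16) was tested with limma 3.58.1 in R 4.3.3 (lmFit, eBayes with trend) over probe sets with a deposited mean of at least 50 in either group. P-values were adjusted over these by Benjamini-Hochberg, with a threshold of 0.05. Fold changes are ratios of mean normalized signals, and the offset makes a log2 change understate that of dim probe sets. What the experiment numbers stand for is not given in the sources used here. They were taken to pair the arrays, since in these same data deviations from the group means correlated weakly between arrays of the same number (0.23, 0.18 and 0.31). Between control and *Otx2* CKO arrays of unlike number the correlations were −0.25 to −0.06. The block with the experiment number was an alternative. Its p-values rest on this pairing, which was read from the data they test, and the main fit does not use the pairing. Lists were described by 1 probe set a gene, that with the highest signal, and no list was tested. They were: photoreceptor transcription factors, neurogenic factors, cone and rod phototransduction, outer segment, cilium, ribbon synapse, visual cycle (median 0.06), bipolar, amacrine, horizontal, ganglion, Muller glia, Dlx and GABA (0.25), young neuron, progenitor, cell cycle, Notch, nuclear factor (0.04), microglia (2 tested), vessel (3 tested), red blood cell, pigment epithelium, lens, connective tissue (1 tested), muscle, oligodendrocyte (2 tested), p53, interferon, immediate early (−0.02), glycolysis, oxidative phosphorylation, cholesterol synthesis (0.14), axon guidance (0.08), sex-linked and housekeeping genes (−0.02). Named were *Otx2*, up to 15 largest falls and rises that passed with arrays apart, otherwise the 6 largest positive changes with arrays apart, up to 3 passing and 2 high-signal members of each list, and all tested photoreceptor transcription factors. Other genes were chosen after their values were seen. Members, lists and rules were chosen with earlier results of these data known. Promoters are those of RefSeq (GRCm38.p6). The tests were tried on simulated data with independent noise and changes placed only in probe sets of high control signal. That trial does not cover dim probe sets or differences between single arrays.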

Additional observations from a re-analysis of the deposited data

How the results depend on the processing

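The 16 lower probe sets were all called after 2% trimmed mean scaling (18 lower), median scaling (22), without X and Y probe sets (17, chosen after seeing the data), with the block and without the third control or first *Otx2* CKO array. Signals as deposited, whose median over all probe sets was −0.20 against −0.01, gave 15 lower, 13 of them among the 16. The count was 25 lower and 3 higher after scaling to the spikes, 10 lower with an offset of 1, 6 with a signal limit of 100, and 3 with array weights. The replicate block gave 35 lower and 2 higher (*Ptf1a*, *Dlx1*), and on signals as deposited 0 and 0 by limma, where 1199 lower and 30 higher probe sets had an unadjusted p below 0.05. The block without the third experiment, chosen after seeing the data, gave 57 and 13. Leaving out 1 array gave 2 to 362 lower and 0 to 38 higher probe sets. The causes were not tested.

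The study's criterion, without a test, gave 34 lower and 1 higher probe sets at a limit of 100, 62 and 8 after quantile normalization, 65 and 7 after trimmed mean scaling and 126 and 5 from means of log2 signals, and 77 to 520 lower and 2 to 13 higher without 1 array. The change of *Tbx2* was 0.0021 after scaling to the spikes and −0.21 to 0.033 without 1 array, and that of *Rorb* −0.509 to 0.217. Blocking changed no call of a gene in the text other than those given there. Of the other values for named genes 91 lost and 108 gained the threshold and 1299 did neither, all in the same direction. The medians of the photoreceptor lists, other than that of the cilium (−0.43 to 0.01), stayed below 0 and those of the ganglion cell (0.23 to 0.57), young neuron (0.10 to 0.45) and glycolysis lists (0.15 to 0.50) above 0 under every alternative run for them. Of all list medians 408 stayed within 1 SD between arrays and 51 moved further. The promoter share was 46.2% with TAATC and 38.5% with 50 bases after the start added. Signals near background, without a detection call, limit the fold of every probe set that fell below 30 units.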
